A study of Mus musculus with 12 samples.

Results

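The epidermal connexins described here are Gja1, Gjb2, Gjb5 and Gjb6, which are 4 of the 20 connexin genes among the 55416 gene identifiers listed for each library. They were chosen from their measured counts over the 4 groups, so their own levels and fold changes are given as a description, with no p-value. How many of the 4 passed the threshold of the fit over all genes is given beside the share of all genes that did, and nothing is read from it. Tests are given only for other genes, whose lists were also made with earlier results of these data known. All 4 passed the filter on low counts, as did 9 of the other 16 connexins.

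The series profiled ear skin of C57BL/6 mice aged 8 to 12 weeks by RNA sequencing, with 3 libraries in each of 4 groups, all labelled day 6. The IMQ/GW3965 group received the liver X receptor (LXR) agonist GW3965 by intraperitoneal injection at 20 mg/kg, once a day from day 3, during daily challenge of the dorsal ear with 20.8 mg of Aldara, a cream holding 5% imiquimod that drives a psoriasis-like inflammation in mice. The IMQ/Troglitazone group received troglitazone, which activates the nuclear receptor PPARγ, at 150 mg/kg on the same schedule and with the same cream. The IMQ/Veh group received the cream with injected DMSO as vehicle, and the UTX/Veh group is named by an abbreviation that the labels do not spell out. The labels give no separate animal for each library, so the errors below measure the spread between libraries, which may be partly technical. The tissue is whole skin, and in such bulk RNA fewer cells of a type and less RNA per cell cannot be told apart.

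Library totals ran from 18242074 to 25641602 expected counts, and 17130 genes were tested. In IMQ/GW3965 replicate 3 a single feature, ENSMUSG00000119584, took 11.6% of the counts, against 0.0454% to 0.138% in the other libraries. Levels between libraries are therefore given in CPM, which is a gene's share of all counts after scaling by the trimmed mean of M-values (TMM), and levels between genes in TPM, a share that takes transcript length into account. The 10 basal and 10 suprabasal keratinocyte markers were detected in every group, with summed levels of at least 12860 and 20121 CPM in any library, so the labelled tissue held abundant epidermis throughout.

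Connexins are the subunits of gap junctions, channels that dock across neighbouring cell membranes and pass ions and small metabolites between cells; undocked channels can also release small molecules to the outside. Keratinocytes use several connexins in layers, and the set in use changes with differentiation and wounding. Gja1 encodes connexin Cx43, the most widely used connexin of the body, which binds the scaffold protein ZO-1 through its tail. Gjb2 and Gjb6 encode Cx26 and Cx30, which share channels in the inner ear and are altered in inherited human deafness and thickened-skin disorders. Gjb5 is a less studied member of the beta class found in differentiated epidermis and in placenta.

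The 4 genes lie at 3 places of the mouse genome (GENCODE M21 positions on GRCm38). Gjb2 (chr14:57098600-57104702, minus strand) and Gjb6 (chr14:57123303-57133611, minus strand) stand beside the lens connexin gene Gja3 on chromosome 14. Gjb5 (chr4:127354809-127358181, minus strand) stands on chromosome 4, on the same strand as the endothelial connexin gene Gja4 nearby. Gja1 (chr10:56377330-56402513, plus strand) lies on chromosome 10. No annotated gene overlapped any of the 4.

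The 250 bases upstream of each start, from RefSeq on GRCm38.p6, are shown because Gjb2 and Gjb6, which are neighbours, had like profiles over the libraries while Gjb5 had the opposite one. They are written 5′ to 3′ on the gene's strand, and capitals mark the matches, on either strand, to 5 short motifs. These are TATAAA, the core promoter element known as the TATA box; GGGCGG, the GC box of Sp1; TGANTCA, the site of AP-1; AGGTCA, the half-site of nuclear receptors, the class that holds LXR and PPARγ; and CACGTG, an E-box.
Gjb2, chr14:57104703-57104952, minus strand
Gjb2: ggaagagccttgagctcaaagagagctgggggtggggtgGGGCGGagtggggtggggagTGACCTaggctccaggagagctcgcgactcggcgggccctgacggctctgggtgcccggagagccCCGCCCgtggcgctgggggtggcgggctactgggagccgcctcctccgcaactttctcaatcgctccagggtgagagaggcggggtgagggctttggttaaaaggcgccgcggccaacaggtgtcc
Gjb6, chr14:57133612-57133861, minus strand
Gjb6: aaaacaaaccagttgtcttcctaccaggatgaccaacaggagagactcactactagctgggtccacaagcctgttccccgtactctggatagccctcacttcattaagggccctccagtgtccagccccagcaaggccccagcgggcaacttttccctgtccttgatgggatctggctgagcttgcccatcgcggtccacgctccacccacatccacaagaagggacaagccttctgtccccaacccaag
Gja1, chr10:56377050-56377299, plus strand
Gja1: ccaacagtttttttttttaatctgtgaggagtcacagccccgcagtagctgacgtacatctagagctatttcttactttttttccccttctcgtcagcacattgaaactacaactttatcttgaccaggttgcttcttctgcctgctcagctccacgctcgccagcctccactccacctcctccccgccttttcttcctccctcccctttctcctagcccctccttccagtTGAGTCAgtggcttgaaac
Gjb5, chr4:127358165-127358414, minus strand
Gjb5: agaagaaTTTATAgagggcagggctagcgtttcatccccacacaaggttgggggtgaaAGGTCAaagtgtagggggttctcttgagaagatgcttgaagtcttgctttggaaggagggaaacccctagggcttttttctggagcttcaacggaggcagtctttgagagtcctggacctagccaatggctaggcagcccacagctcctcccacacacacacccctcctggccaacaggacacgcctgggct
The Gjb2 stretch held 2 GC boxes, 1 on each strand, and 1 nuclear receptor half-site on the opposite strand. Of its bases, 69.2% were G or C. The Gjb6 stretch held none of the 5 motifs, with 56.8% G or C. The Gja1 stretch held 1 AP-1 match that ended 13 bases before the start, with 50% G or C. The Gjb5 stretch held a half-site and, on the opposite strand, a TATA box match 238 to 243 bases upstream, with 54.4% G or C. Of 32851 mouse promoter stretches of the same length, 32.7% held the GC box, 14.02% the half-site, 12.4% the TATA box, 6.75% the AP-1 site and 6.02% the E-box, and the median stretch had 52.4% G or C. A match is a string of letters and says nothing of binding.

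Gjb2 and Gjb6 were far lower in UTX/Veh skin than under imiquimod, and both agonist groups stood between. Gjb2 had 237, 493 and 456 CPM in IMQ/GW3965, 480, 469 and 287 CPM in IMQ/Troglitazone, 1201, 868 and 940 CPM in IMQ/Veh and 15.3, 14.4 and 10.2 CPM in UTX/Veh. Every IMQ/Veh library was above every library of the agonist groups, and these in turn were above all UTX/Veh libraries. Gjb6 had 55.0, 83.0 and 81.9 CPM in IMQ/GW3965, 82.7, 65.3 and 57.0 CPM in IMQ/Troglitazone, 201, 110 and 162 CPM in IMQ/Veh and 1.61, 1.59 and 1.49 CPM in UTX/Veh. The same 3 tiers appeared without overlap, and the UTX/Veh values rest on 35 to 41 reads a library. In both genes IMQ/GW3965 replicate 1 and IMQ/Troglitazone replicate 3 were the lowest of their groups.

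Gja1 was present in UTX/Veh skin and changed over a smaller range. It had 384, 477 and 560 CPM in IMQ/GW3965, 525, 471 and 443 CPM in IMQ/Troglitazone, 769, 672 and 557 CPM in IMQ/Veh and 72.4, 72.0 and 70.0 CPM in UTX/Veh. The highest IMQ/GW3965 library touched the lowest IMQ/Veh library, so these groups overlapped, while the IMQ/Troglitazone libraries stayed below all IMQ/Veh ones. The UTX/Veh libraries were close to each other, with an SD of 1.26 CPM about a mean of 71.5 CPM.

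Gjb5 ran the other way. It had 83.2, 82.7 and 74.3 CPM in IMQ/GW3965, 60.3, 50.5 and 74.9 CPM in IMQ/Troglitazone, 35.4, 41.9 and 33.7 CPM in IMQ/Veh and 66.2, 72.2 and 60.1 CPM in UTX/Veh. IMQ/Veh was the lowest group, with no overlap with any other. The order of the group means was IMQ/GW3965, UTX/Veh, IMQ/Troglitazone and IMQ/Veh, in which UTX/Veh and IMQ/Troglitazone overlapped.

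**Figure D1:**
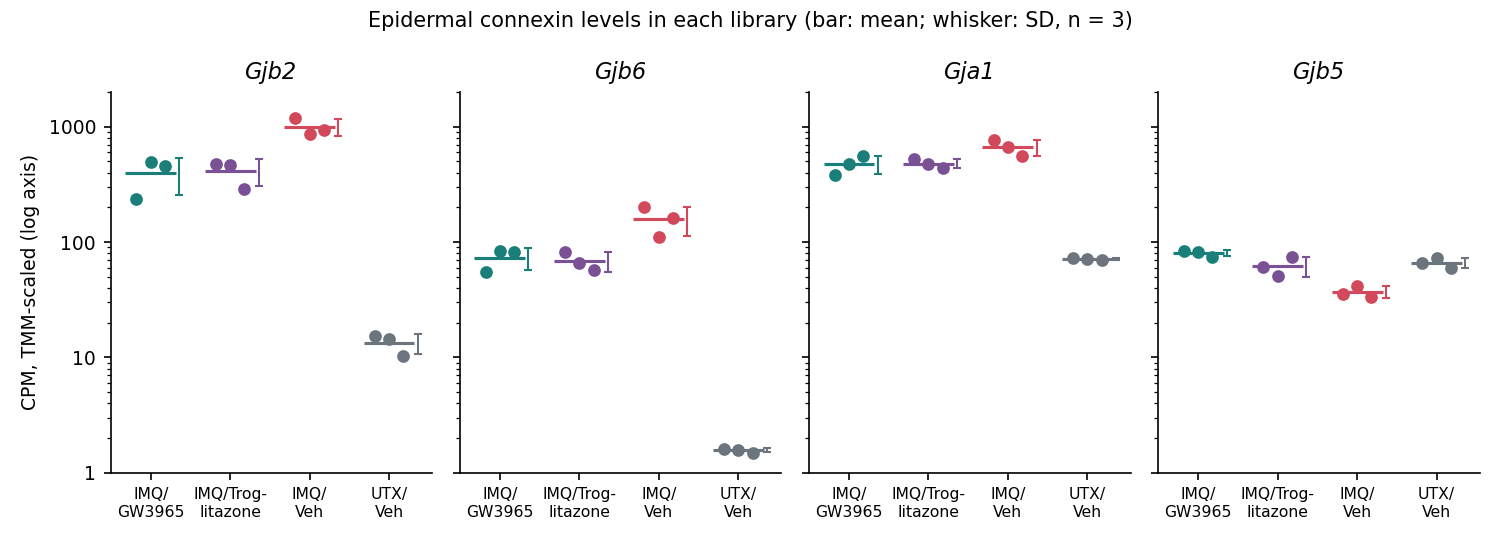
Level of each of the 4 epidermal connexins in every library, in TMM-scaled CPM on a log axis, with the 4 groups along the x axis; points are libraries, horizontal bars group means and whiskers the SD (n = 3). Gjb2 and Gjb6 form 3 separate tiers, from 868 to 1201 CPM and from 110 to 201 CPM in IMQ/Veh down to 10.2 to 15.3 CPM and 1.49 to 1.61 CPM in UTX/Veh, while Gjb5 is lowest in IMQ/Veh at 33.7 to 41.9 CPM.

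In IMQ/Veh against UTX/Veh, which sets imiquimod-treated skin against the UTX/Veh skin, 3 of the 4 genes were higher and 1 was lower. Gjb6 averaged 158 ± 45.7 CPM in IMQ/Veh and 1.56 ± 0.0615 CPM in UTX/Veh (SD, n = 3 each), a 100-fold difference (log2 6.65 ± 0.29, SE). Gjb2 averaged 1003 ± 175 CPM in IMQ/Veh and 13.3 ± 2.71 CPM in UTX/Veh, a 75.2-fold difference (log2 6.23 ± 0.34). Gja1 averaged 666 ± 106 CPM in IMQ/Veh and 71.5 ± 1.26 CPM in UTX/Veh, a 9.32-fold difference (log2 3.22 ± 0.16). Gjb5 averaged 37.0 ± 4.30 CPM in IMQ/Veh, 0.559 of the 66.2 ± 6.05 CPM in UTX/Veh (log2 −0.84 ± 0.14). All 4 passed the threshold of edgeR's quasi-likelihood test, an adjusted p under 0.05, beside 61.8% of all genes tested, and nothing is read from that count because the genes were chosen on these values. The sizes depend on what the scaling holds constant: scaled to the sum of the 10 basal keratinocyte markers, the log2 differences were 5.61 for Gjb6, 5.21 for Gjb2, 2.21 for Gja1 and −1.82 for Gjb5. That sum was 23707 to 31608 CPM in IMQ/Veh and 12860 to 14106 CPM in UTX/Veh, while the median of the 10 log2 differences was −0.51, with 3 of the markers up and 5 down.

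In IMQ/GW3965 against IMQ/Veh, Gjb2 and Gjb6 were at less than their IMQ/Veh level and Gjb5 was at more than it. Gjb2 averaged 395 ± 138 CPM in IMQ/GW3965, 39.4% of the IMQ/Veh mean (log2 −1.34 ± 0.28). Gjb6 averaged 73.3 ± 15.9 CPM in IMQ/GW3965, 46.5% of the IMQ/Veh mean (log2 −1.11 ± 0.22). Gja1 averaged 474 ± 88.1 CPM in IMQ/GW3965, 71.1% of the IMQ/Veh mean (log2 −0.49 ± 0.14). Gjb5 averaged 80.1 ± 5.02 CPM in IMQ/GW3965, 2.16-fold above IMQ/Veh (log2 1.11 ± 0.14). Past the edgeR threshold were 3 of the 4, all but Gja1, beside 6.59% of all genes tested, from which nothing is read for the same reason. The count was 1 of 4 when the fit held only the 2 groups compared, without IMQ/Veh replicate 1 or without IMQ/GW3965 replicate 1. The number of genes called in all moved with the same libraries, from 1129 to 102, 154 and 105, and was 3645 without IMQ/Veh replicate 3.

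In IMQ/Troglitazone against IMQ/Veh, which shares the IMQ/Veh libraries with the comparison before, the 4 genes had the same directions. Gjb2 averaged 412 ± 109 CPM in IMQ/Troglitazone, 41.1% of the IMQ/Veh mean (log2 −1.28 ± 0.28). Gjb6 averaged 68.3 ± 13.1 CPM in IMQ/Troglitazone, 43.4% of the IMQ/Veh mean (log2 −1.21 ± 0.22). Gja1 averaged 480 ± 41.8 CPM in IMQ/Troglitazone, 72.0% of the IMQ/Veh mean (log2 −0.47 ± 0.14), and scaled to the basal keratinocyte markers this difference was −0.02. Gjb5 averaged 61.9 ± 12.2 CPM in IMQ/Troglitazone, 1.67-fold above IMQ/Veh (log2 0.74 ± 0.14). Past the edgeR threshold were 3 of the 4, all but Gja1, beside 9.33% of all genes tested, which again is a description. The count was 0 of 4 when the fit held only the 2 groups compared, where edgeR called 0 genes of any kind (3279 at an unadjusted p under 0.05, against 2590 called by DESeq2 with all groups in the fit), or without IMQ/Veh replicate 1, and 1 of 4 without IMQ/Troglitazone replicate 3.

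In the 3 genes that were higher in IMQ/Veh, neither agonist group was at the UTX/Veh level. Gjb6 was 46.6-fold and Gjb2 29.6-fold above UTX/Veh in IMQ/GW3965, and 43.5-fold and 30.9-fold above it in IMQ/Troglitazone. Gja1 was 6.63-fold above UTX/Veh in IMQ/GW3965 and 6.71-fold in IMQ/Troglitazone. Gjb5 differed from UTX/Veh by 0.28 ± 0.14 (log2, SE) in IMQ/GW3965 and by −0.10 ± 0.14 in IMQ/Troglitazone. For Gjb5 in IMQ/GW3965 the side depends on the scale: its CPM values were all above the UTX/Veh ones, but in TPM it had 71.4, 66.3 and 49.4 in IMQ/GW3965, against 77.5, 81.5 and 70.8 in UTX/Veh. The scaling factors of the CPM were 1.15 to 1.18 in UTX/Veh and 0.812 to 0.988 in IMQ/GW3965.

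Between the agonist groups, whose doses differed, IMQ/GW3965 and IMQ/Troglitazone overlapped in all 4 genes. The log2 difference of IMQ/GW3965 from IMQ/Troglitazone was −0.06 ± 0.27 for Gjb2, 0.10 ± 0.22 for Gjb6, −0.02 ± 0.14 for Gja1 and 0.37 ± 0.14 for Gjb5 (SE).

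The connexin pool of the skin changed in size and in make-up with these genes. Summed over all 20 connexins, the pool held 783 ± 90.8 TPM in IMQ/GW3965, 922 ± 74.8 TPM in IMQ/Troglitazone, 1122 ± 82.3 TPM in IMQ/Veh and 404 ± 18.9 TPM in UTX/Veh (SD, n = 3 each). IMQ/GW3965 replicate 3 had 8.78% of its TPM in the single feature named above, which lowers every other value there. The size depends on the scale: in TMM-scaled CPM, which does not take length into account, the same sum was 1353 ± 227 in IMQ/GW3965, 1313 ± 144 in IMQ/Troglitazone, 2052 ± 280 in IMQ/Veh and 379 ± 23.6 in UTX/Veh. On this scale the agonist groups were in the opposite order and IMQ/Veh stood further above UTX/Veh. The 4 genes made up 64.7% ± 5.75 of the pool in IMQ/GW3965, 67.9% ± 3.48 in IMQ/Troglitazone, 85.6% ± 2.94 in IMQ/Veh and 32.8% ± 0.355 in UTX/Veh. Since they were chosen on their counts, this share is a description.

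The order of the 4 within the pool also differed. In IMQ/GW3965 Gjb2 held 26.2% ± 6.14 of connexin TPM, Gja1 24.6% ± 2.15, Gjb5 7.99% ± 1.56 and Gjb6 5.91% ± 0.488. In IMQ/Troglitazone Gjb2 held 29.1% ± 5.62, Gja1 26.3% ± 0.669, Gjb5 6.51% ± 1.83 and Gjb6 5.89% ± 0.581. In IMQ/Veh Gjb2 held 48.6% ± 2.76, Gja1 24.9% ± 2.35, Gjb6 9.41% ± 1.90 and Gjb5 2.65% ± 0.510. In UTX/Veh Gjb5 led the 4 with 18.9% ± 0.485, followed by Gja1 with 10.9% ± 0.603, Gjb2 with 2.62% ± 0.425 and Gjb6 with 0.368% ± 0.0240. Gja1 thus held a like share in the 3 imiquimod groups, while Gjb2 and Gjb6 had their highest share and Gjb5 its lowest in IMQ/Veh.

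**Figure D2:**
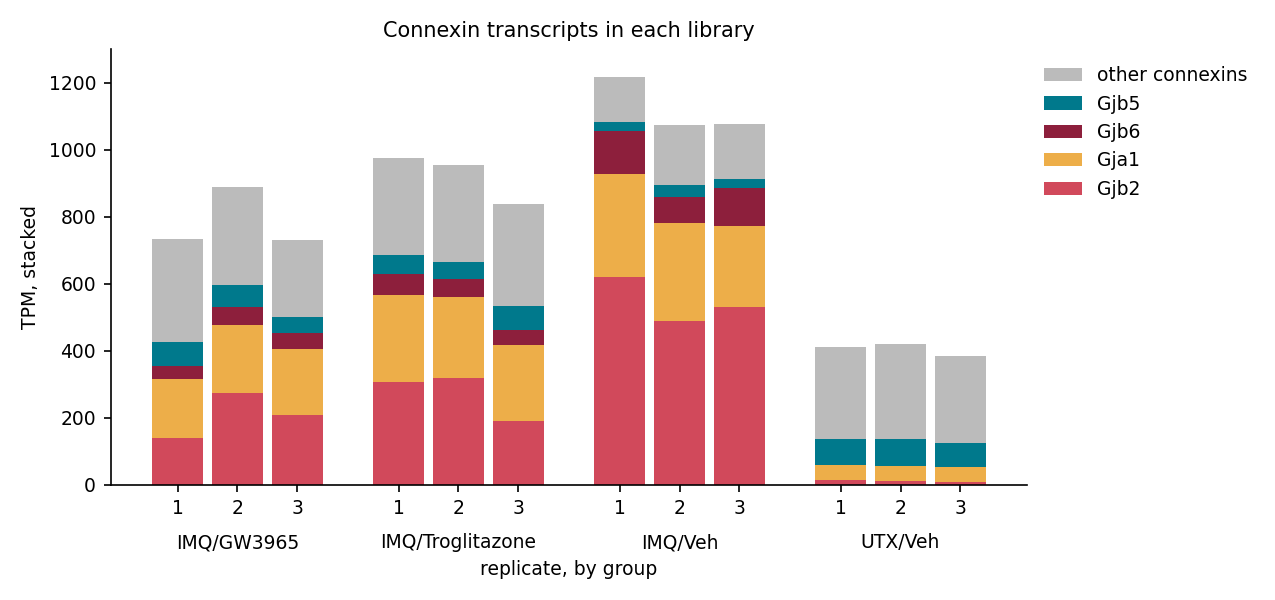
Connexin transcripts in each library in TPM, stacked by gene, with the 3 replicates of each of the 4 groups along the x axis; the other 16 connexins are summed in grey. The pool averages 1122 TPM in IMQ/Veh and 404 TPM in UTX/Veh, and Gjb2 with Gja1 fills most of the IMQ/Veh bars while the 4 genes together hold 32.8% of the UTX/Veh bars.

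Within a library, the TPM ratio of Gjb2 to Gjb6 moved little beside their levels. It was 4.39 ± 0.719 in IMQ/GW3965, 4.95 ± 0.972 in IMQ/Troglitazone, 5.29 ± 0.888 in IMQ/Veh and 7.13 ± 1.18 in UTX/Veh (SD, n = 3 each). The ratio of Gjb2 to Gjb5 was 3.44 ± 1.27 in IMQ/GW3965, 4.84 ± 1.96 in IMQ/Troglitazone, 19.0 ± 4.55 in IMQ/Veh and 0.138 ± 0.0211 in UTX/Veh. Gjb2 and Gja1 were close to parity under the agonists, at 1.07 ± 0.265 in IMQ/GW3965 and 1.11 ± 0.237 in IMQ/Troglitazone, against 1.97 ± 0.264 in IMQ/Veh and 0.242 ± 0.0463 in UTX/Veh.

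Other connexins were tested. They are the rest of the family after the 4 were chosen on their counts, and their list was made with earlier results known. Their adjusted p-values are therefore not fully independent of these data. The gene beside Gjb2 and Gjb6, Gja3, did not share their direction. Gja3, a lens connexin, averaged 0.269 ± 0.169 CPM in IMQ/Veh and 1.45 ± 0.130 CPM in UTX/Veh (SD, n = 3 each) and fell (log2 −2.35 ± 0.50, edgeR adjusted p = 0.00158). It passed in neither agonist comparison (log2 0.99 ± 0.55 and 0.59 ± 0.56, edgeR adjusted p = 0.281 and 0.516). Its values rest on few reads, 2 to 11 a library in IMQ/Veh and 33 to 36 in UTX/Veh. Gja4, the endothelial connexin near Gjb5, passed in none of the 3 comparisons, with log2 values of −0.01 ± 0.29 in IMQ/GW3965 and −0.13 ± 0.29 in IMQ/Troglitazone against IMQ/Veh, and −0.25 ± 0.29 in IMQ/Veh against UTX/Veh; edgeR called the last (adjusted p = 0.0184, in a range up to 0.966 over the alternatives) without IMQ/Veh replicate 3, the library with the highest summed fibroblast markers.

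Beyond the connexin genes themselves, the 2 nearest protein-coding neighbours on each side of each place made 12 genes, of which 9 were tested. Against IMQ/Veh none of the 9 passed in IMQ/GW3965 (log2 −0.16 to 0.42, lowest edgeR adjusted p = 0.0518) or in IMQ/Troglitazone (log2 −0.25 to 0.36, lowest edgeR adjusted p = 0.0885). The lowest of these, Hsf2, a heat shock transcription factor downstream of Gja1, was past the threshold for GW3965 in 8 of 24 alternatives. In IMQ/Veh against UTX/Veh 7 of the 9 fell, beside 28.9% of all genes. Hsf2 fell (log2 −1.03 ± 0.11, edgeR adjusted p = 2.05e-05), while Gja1 was 9.32-fold higher. The 2 genes are far apart: Gja1 ends at base 56402513 and Hsf2 starts at base 57486385. Beside Gjb6, Cryl1, which encodes a lambda-crystallin homologue, fell (log2 −0.70 ± 0.14, edgeR adjusted p = 0.00103), and Ift88, a ciliary transport gene, did not pass (log2 −0.19 ± 0.11, edgeR adjusted p = 0.162). On the Gja3 side of the same row, Zmym5 (log2 −0.46 ± 0.11, edgeR adjusted p = 0.00329) and Zmym2 (log2 −0.29 ± 0.08, edgeR adjusted p = 0.00941) both fell.

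Of the connexins elsewhere in the genome, Gjb1, the liver and Schwann cell connexin Cx32, rose in IMQ/Veh to 3.25 ± 1.27 CPM against 0.804 ± 0.255 CPM in UTX/Veh (log2 2.00 ± 0.43, edgeR adjusted p = 0.00169). It had lower means under both agonists, which did not pass the test (log2 −1.16 ± 0.41 in IMQ/GW3965, edgeR adjusted p = 0.106, and −1.27 ± 0.41 in IMQ/Troglitazone, edgeR adjusted p = 0.0706). Gjc3, a connexin of myelinating glia, fell in IMQ/Veh to 1.55 ± 0.504 CPM against 4.21 ± 1.09 CPM in UTX/Veh (log2 −1.44 ± 0.32, edgeR adjusted p = 0.00224). All 6 Schwann cell markers fell in the same comparison, beside 28.9% of all genes, while Gjb1 rose. The part of Schwann cells in either change was not tested. Gja5 and Gjc1 passed in none of the 3 comparisons; Gja5 overlaps genes on the opposite strand, and its reads are uncertain to that extent. Without IMQ/Veh replicate 2, edgeR called Gja5 higher in IMQ/Veh than in UTX/Veh (adjusted p = 0.0145, in a range up to 0.928 over the alternatives, with log2 values of 0.05 to 1.27).

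Pannexins form membrane channels of like build from unrelated sequence. Panx1, the broad ATP-release channel, had 22.4, 27.7 and 25.9 CPM in IMQ/GW3965, 26.1, 26.1 and 17.7 CPM in IMQ/Troglitazone, 37.6, 44.7 and 28.2 CPM in IMQ/Veh and 17.8, 17.96 and 16.8 CPM in UTX/Veh. It rose in IMQ/Veh against UTX/Veh (log2 1.07 ± 0.18, edgeR adjusted p = 0.000332), fell in IMQ/Troglitazone against IMQ/Veh (log2 −0.66 ± 0.18, edgeR adjusted p = 0.0405, a call lost in 12 of 24 alternatives) and did not pass in IMQ/GW3965 (log2 −0.54 ± 0.18, edgeR adjusted p = 0.0836). Panx3, found in cartilage, bone and skin, averaged 25.0 ± 3.58 CPM in IMQ/GW3965, 19.7 ± 1.73 CPM in IMQ/Troglitazone, 11.8 ± 6.55 CPM in IMQ/Veh and 31.7 ± 4.99 CPM in UTX/Veh (SD, n = 3 each). It fell in IMQ/Veh against UTX/Veh (log2 −1.42 ± 0.30, edgeR adjusted p = 0.00155) and passed in neither agonist comparison (edgeR adjusted p = 0.0527 and 0.136). In IMQ/Veh against UTX/Veh 6 of 7 tested cartilage markers also fell, beside 28.9% of all genes. The part of cartilage in the Panx3 change was not tested.

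**Figure D3:**
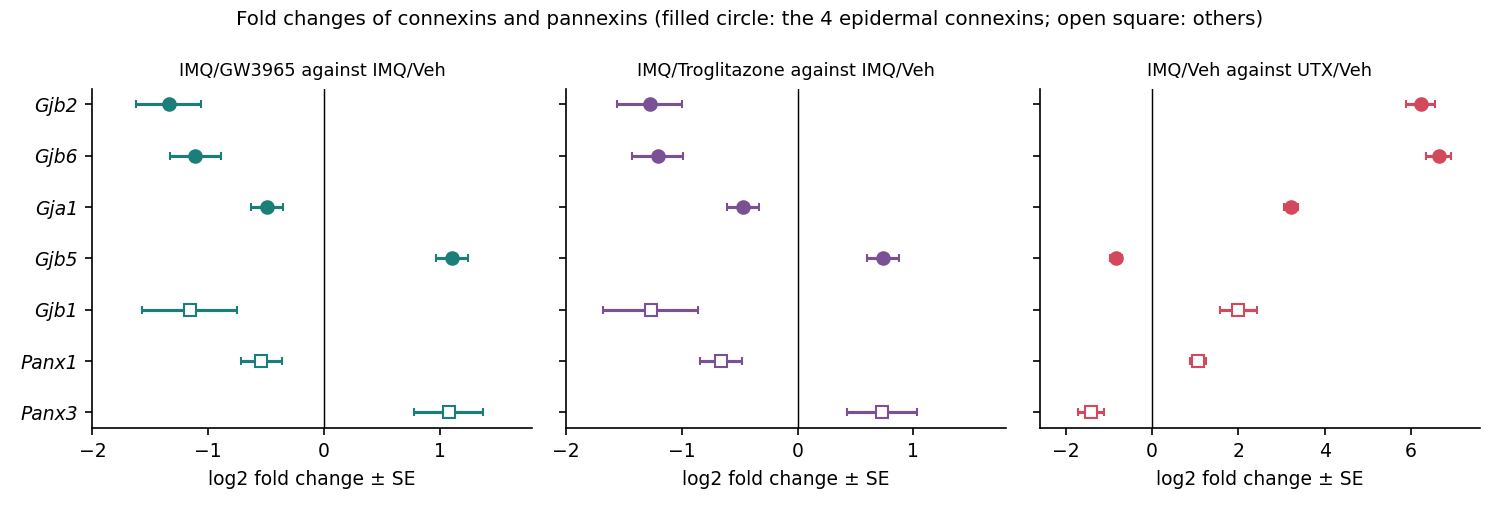
Log2 fold changes with SE of the 4 epidermal connexins (filled circles, given as a description) and of 3 tested genes, Gjb1, Panx1 and Panx3, (open squares) in the 3 comparisons, one panel each, with a wider x axis for IMQ/Veh against UTX/Veh. Gjb5 lies at 1.11 for GW3965 and 0.74 for troglitazone, opposite to Gjb2 and Gjb6 between −1.34 and −1.11.

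Genes that serve gap junctions were read from 3 lists: adherens and tight junction partners with scaffolds (15 genes), kinases and phosphatases that act on connexins (14 genes) and genes of connexin trafficking and turnover (12 genes). All 41 were tested. In IMQ/Veh against UTX/Veh 18 rose and 10 fell, with a median log2 of 0.18, beside 32.9% of all genes that rose, 28.9% that fell and a median of 0.0074. In IMQ/GW3965 against IMQ/Veh 1 rose and none fell, beside 6.59% of all genes called, and in IMQ/Troglitazone 3 rose and none fell, beside 9.33%. These changes were small beside those of Gjb2 and Gjb6.

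Of the partners and scaffolds, 7 rose and 4 fell in IMQ/Veh against UTX/Veh. Cttn, the actin-binding cortactin (log2 0.62 ± 0.08, edgeR adjusted p = 4.36e-05), and Ezr, the membrane linker ezrin (log2 0.50 ± 0.13, edgeR adjusted p = 0.00626), were among those that rose, and Ezr lost the call without IMQ/Veh replicate 2. None of the 15 passed in either agonist comparison.

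Of the kinases and phosphatases, 5 rose and 2 fell in IMQ/Veh against UTX/Veh. Cdk1, the mitotic kinase that phosphorylates Cx43 in dividing cells, rose to 62.1 CPM in IMQ/Veh, against 8.87 CPM in UTX/Veh (log2 2.81 ± 0.21, edgeR adjusted p = 1.51e-06). Ptpn1, a tyrosine phosphatase, rose (log2 0.72 ± 0.11, edgeR adjusted p = 0.000186), and Prkca, a protein kinase C, fell (log2 −0.99 ± 0.14, edgeR adjusted p = 9.33e-05). In IMQ/Troglitazone against IMQ/Veh Prkca rose (log2 0.52 ± 0.14, edgeR adjusted p = 0.0387), as did the casein kinase Csnk1e (log2 0.47 ± 0.12, edgeR adjusted p = 0.0328), calls lost in 9 and 7 of 24 alternatives.

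Of the trafficking genes, 6 rose and 4 fell in IMQ/Veh against UTX/Veh. Rab11a, a small GTPase of recycling vesicles, rose to 312 CPM in IMQ/Veh, against 127 CPM in UTX/Veh (log2 1.3 ± 0.11, edgeR adjusted p = 3.34e-06), and Ywhaq, a 14-3-3 protein, rose (log2 0.46 ± 0.07, edgeR adjusted p = 0.000118). Cnst, which encodes consortin, a receptor in the trans-Golgi network that carries connexins to the cell surface, fell to 41.6 CPM in IMQ/Veh, against 84.1 CPM in UTX/Veh (log2 −1.02 ± 0.12, edgeR adjusted p = 3.13e-05). It rose to 61.8 CPM in IMQ/GW3965 (log2 0.57 ± 0.12, edgeR adjusted p = 0.0234) and to 60.2 CPM in IMQ/Troglitazone (log2 0.54 ± 0.12, edgeR adjusted p = 0.0236), each against IMQ/Veh. Cnst was the only gene of the 3 lists that passed in all 3 comparisons, and either agonist call was lost in 4 of 24 alternatives, among them the fit of only the 2 groups and the fit without IMQ/Veh replicate 1.

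Genes with the most similar profile were found by the root-mean-square (RMS) difference of log2(CPM + 0.5), centred on each gene's own mean, over the 12 libraries, among 13718 genes with a mean of at least 1 CPM. This ranks likeness over the same libraries and says nothing of function. Gjb2 and Gjb6 were each other's nearest gene, at an RMS difference of 0.246 log2 units, set against a spread of 2.38 for Gjb2 and 2.42 for Gjb6 about their own means. After Gjb6, the genes nearest to Gjb2 were the serpin Serpinb3a (0.369), the kallikrein protease Klk6 (0.389), the protease Prss27 (0.404) and the growth factor Epgn (0.413). After Gjb2, the genes nearest to Gjb6 were Klk6 (0.296), the cornified envelope gene Lce3c (0.319), the transcription factor Tcf23 (0.371) and the IL-36 cytokine gene Il1f6 (0.401).

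Gja1 had other neighbours in profile, with RMS differences to be read against its own spread of 1.27. They were Psors1c2 (0.140), Pinlyp (0.153), the glycosyltransferase Galnt6 (0.160), the mitotic kinase Plk1 (0.163) and Tmem125 (0.165), and Gjb2 ranked 4186 from it. Plk1 had 30.3 CPM in IMQ/GW3965, 29.7 CPM in IMQ/Troglitazone, 47.2 CPM in IMQ/Veh and 4.30 CPM in UTX/Veh on average. Gjb5, with a spread of 0.435, was nearest to the acyltransferase Agpat5 (0.125), the apolipoprotein Apoe (0.139), the autophagy gene Map1lc3a (0.168), the small heat shock protein Hspb8 (0.179) and the sterol acyltransferase Soat1 (0.179). Apoe averaged 1999 CPM in IMQ/GW3965, 1417 CPM in IMQ/Troglitazone, 1002 CPM in IMQ/Veh and 1653 CPM in UTX/Veh, in the order of the Gjb5 means.

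**Figure D4:**
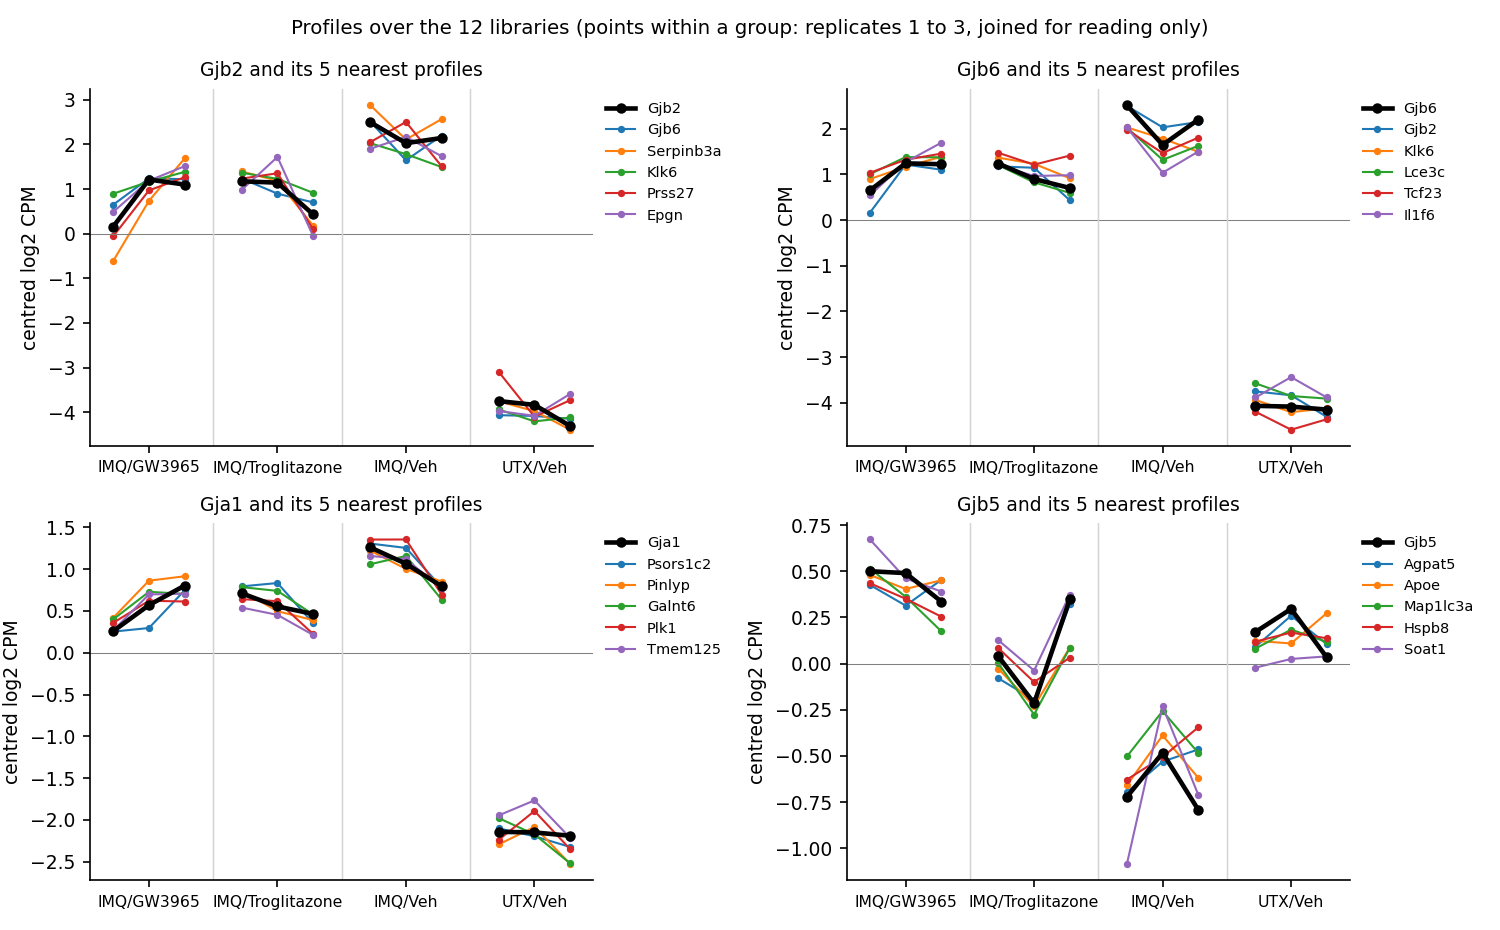
Log2 CPM of each epidermal connexin (black) and of its 5 nearest genes, centred on each gene's mean over the 12 libraries, with the 4 groups along the x axis and replicates 1 to 3 within each; the y axes differ between panels. Gjb2 and Gjb6 trace each other within an RMS difference of 0.246, and Gjb5 with its nearest genes dips in IMQ/Veh where the other 3 connexins peak.

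The deposited transcript-weighted lengths gave a readout that the choice of genes did not use. Gjb2 and Gjb5 had 1 annotated transcript each, so their length was constant at 2406 and 1721 bases. Gja1, with 8 transcripts, had mean lengths of 3064 to 3070 bases in the 4 groups. Gjb6, with 4 transcripts, averaged 2036 ± 10.5 bases in IMQ/GW3965, 2016 ± 27.7 in IMQ/Troglitazone, 1981 ± 22.4 in IMQ/Veh and 2055 ± 47.8 in UTX/Veh (SD, n = 3 each). Every IMQ/Veh library was below every UTX/Veh library and below every IMQ/GW3965 library, while the IMQ/Troglitazone libraries overlapped those of IMQ/Veh. No test is given, since 3 libraries against 3 are too few for an exact permutation test to pass the threshold. The UTX/Veh lengths rest on 35 to 41 reads a library.

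Markers of stressed keratinocytes, neutrophils and the cell cycle differed between the groups in the same direction as Gjb2, Gjb6 and Gja1, and opposite to Gjb5. The 7 stress keratinocyte markers, which include Krt6a, Krt16 and S100a8, summed to 7665 to 13072 CPM in IMQ/GW3965, 4877 to 14322 CPM in IMQ/Troglitazone, 30711 to 42458 CPM in IMQ/Veh and 214 to 351 CPM in UTX/Veh. All 7 rose in IMQ/Veh against UTX/Veh, beside 32.9% of all genes. In each agonist comparison 3 of 7 fell, beside 2.88% of all genes for GW3965 and 4.65% for troglitazone. The lowest IMQ/GW3965 and IMQ/Troglitazone libraries in this sum were replicate 1 and replicate 3, the libraries that were also lowest in Gjb2 and Gjb6. The 7 neutrophil markers, S100a8 and S100a9 again among them, summed to 269 to 2014 CPM in IMQ/GW3965, 379 to 1957 CPM in IMQ/Troglitazone, 5729 to 10076 CPM in IMQ/Veh and 7.81 to 22.9 CPM in UTX/Veh, with 1 marker at 0 in every UTX/Veh library. All 7 rose in IMQ/Veh, and 3 of 7 fell in each agonist comparison. The 10 cell cycle markers summed to 601 to 741 CPM in IMQ/GW3965, 673 to 803 CPM in IMQ/Troglitazone, 743 to 1131 CPM in IMQ/Veh and 141 to 188 CPM in UTX/Veh. All 10 rose in IMQ/Veh, 1 fell under GW3965 and 5 under troglitazone. The neutrophil and cell cycle counts stand beside the same shares of all genes.

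Skeletal muscle and sebaceous gland markers had the opposite direction, that of Gjb5. Cartilage, adipocyte and Schwann cell markers shared it, with median log2 values of −1.85, −1.14 and −1.34 in IMQ/Veh against UTX/Veh. Against IMQ/Veh these medians were 0.57, 1.09 and 0.63 in IMQ/GW3965 and 0.81, 1.02 and 0.50 in IMQ/Troglitazone. Under the agonists 1 cartilage marker passed, for GW3965, and no adipocyte or Schwann cell marker did. Of all genes, 32.9% rose and 28.9% fell in IMQ/Veh against UTX/Veh. Against IMQ/Veh, 3.71% of all genes rose under GW3965 and 4.69% under troglitazone. The counts of markers given here are to be read beside these shares. The 8 skeletal muscle markers summed to 4985 to 7181 CPM in IMQ/GW3965, 3314 to 5048 CPM in IMQ/Troglitazone, 934 to 4332 CPM in IMQ/Veh and 9275 to 10813 CPM in UTX/Veh. All 8 fell in IMQ/Veh against UTX/Veh, and 2 rose in IMQ/GW3965 against IMQ/Veh. None passed in IMQ/Troglitazone, whose range of sums overlapped that of IMQ/Veh. The 8 sebaceous gland markers summed to 531 to 690 CPM in IMQ/GW3965, 446 to 569 CPM in IMQ/Troglitazone, 222 to 479 CPM in IMQ/Veh and 519 to 592 CPM in UTX/Veh; 4 fell in IMQ/Veh, 5 rose under GW3965 and 2 under troglitazone. In IMQ/Veh against UTX/Veh 6 of 8 fibroblast, 7 of 8 endothelial and 6 of 7 smooth muscle and pericyte markers did not pass, while 61.8% of all genes did. The IMQ/Veh libraries lay far apart in these sums, at 1933 to 9383, 67.8 to 255 and 216 to 456 CPM. In UTX/Veh they were 4173 to 6761, 172 to 241 and 345 to 442 CPM. With this spread, not passing does not show an unchanged level. The 10 suprabasal keratinocyte markers, the layer in which Gjb5 is used, summed to 49743 to 65810 CPM in IMQ/GW3965, 49755 to 60178 CPM in IMQ/Troglitazone, 36987 to 54273 CPM in IMQ/Veh and 20121 to 23562 CPM in UTX/Veh. Of these, 6 rose and 1 fell in IMQ/Veh, and 2 rose in each agonist comparison. The part of these cell types in the connexin values was not tested.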

How the data were processed

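Ear skin RNA of 12 mouse libraries, 3 in each of 4 groups, was analysed from gene tables deposited by the authors. Per the labels' protocols, libraries were made with a stranded mRNA kit after DNase treatment. Per the submitters' processing notes, the tools named are FastQC, Trim Galore, STAR 2.7.3a and RSEM 1.3.3, with the mouse build GRCm38/mm10, without their settings. The deposited expected counts are RSEM estimates for each gene, not normalized, and were rounded to whole numbers. The deposited TPM values were used as given, for levels between genes; the length column of the same tables was also used. GENCODE M21 gave symbols to 52135 of 55416 identifiers, and all 204 listed symbols matched.

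The 4 connexins and all gene lists were chosen with earlier results of these data known. All 12 libraries entered 1 edgeR 4.0.16 fit of the 4 groups (R 4.3.3, TMM scaling, the default filter on low counts by group, quasi-likelihood test, Benjamini-Hochberg adjustment over 17130 genes, threshold 0.05), with 8 residual degrees of freedom and a common dispersion of 0.0306. The fit was checked on simulated data, where it missed more of the smaller changes than of the larger ones. Fold changes are the group named first over the group named second, with SE from the same fit. Alternatives were DESeq2 1.42.0, limma-voom (3.58.1), upper-quartile or RLE scaling, other filters, fits of only the 2 groups, the replicate number or a field of the file names as a covariate, scaling to basal keratinocyte markers, leaving out features and leaving out each library. Named besides the 4 are the other connexins and pannexins that passed the filter, up to 3 genes for each list and comparison with the lowest adjusted p, 2 coding neighbours on each side and the 5 nearest profiles; a few genes that this rule names are not reported here. No 2 libraries agreed within counting noise. Precision is limited by 3 libraries in a group; intervals cover these libraries only.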

Additional observations from a re-analysis of the deposited data

How the results depend on the processing

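No direction of Gja1, Gjb2, Gjb5 or Gjb6 turned round in any of the 3 comparisons under the alternatives run. Scaling to basal keratinocyte markers took the following log2 differences outside the range each had when 1 library was left out. In IMQ/Veh against UTX/Veh they became 2.21 for Gja1, 5.21 for Gjb2, −1.82 for Gjb5 and 5.61 for Gjb6. The Gjb5 value in IMQ/GW3965 against IMQ/Veh became 1.34. In IMQ/Troglitazone against IMQ/Veh they became −0.02 for Gja1, −0.84 for Gjb2, 1.20 for Gjb5 and −0.74 for Gjb6. For GW3965, the log2 difference of Gja1 ran from −0.74 to −0.25 over the alternatives other than leaving out 1 library. When 1 library was left out it ran from −0.62 to −0.36. For Gjb6 these ranges were −1.16 to −0.84 and −1.30 to −0.89. Upper-quartile scaling put the median of all genes at −0.114 in IMQ/Veh against UTX/Veh, against 0.0074 with TMM.

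The number of genes called for GW3965, 1129, became 2222 with DESeq2, 102 with only the 2 groups in the fit, 549 with the file-name field as a covariate, 3041 without both replicate 3 of IMQ/Veh and replicate 3 of IMQ/GW3965 (chosen after seeing the data), and 105 to 3645 when 1 library was left out, lowest without IMQ/GW3965 replicate 1 and highest without IMQ/Veh replicate 3. For troglitazone, 1599 became 2590, 0, 1009 and 4166 under the same 4 settings, and 162 to 4460 when 1 library was left out, lowest and highest without IMQ/Veh replicates 1 and 3. Fits of only the 2 groups have fewer residual degrees of freedom; otherwise the cause was not tested. Of the 4 connexins, 1 was past the threshold for GW3965 and 0 for troglitazone with only the 2 groups in the fit, and 1 to 4 and 0 to 4 when 1 library was left out. In IMQ/Veh against UTX/Veh all 4 stayed past it throughout, with 9342 to 11280 genes called when 1 library was left out.

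With the replicate number as a replicate block, 10722 genes were called in IMQ/Veh against UTX/Veh, 1426 for GW3965 and 1714 for troglitazone, and the connexins past the threshold stayed at 4, 3 and 3. The labels do not say that the numbers pair libraries: of 18 same-numbered pairs, 6 had deviations correlated above 0.1 (r from −0.254 to 0.397), and 7 of 12 libraries were closest to the same number. Of the calls of the other genes chosen by the naming rule, 62 were lost and 26 gained over the alternatives, against 1659 that kept their side of the threshold. Gjb6 in UTX/Veh is limited by depth.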
